A study of Mus musculus with 8 samples.

Results

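Pseudogenes are disabled copies of genes. Many mouse pseudogenes are processed copies, made by reverse transcription of a messenger RNA and inserted elsewhere without the promoter of the parent gene. Others are duplicated genes that lost their function, and some of either kind are transcribed. H2A.Z is a variant of histone H2A that marks promoters and other regulatory DNA, and ZNHIT1 is a subunit of the SRCAP complex, which exchanges H2A for H2A.Z in nucleosomes. H2A.Z peaks at pseudogene ends were taken as the deposited peaks within 1 kb of either end of a RefSeq pseudogene and more than 1 kb from both ends of every protein-coding and long non-coding RNA (lncRNA) gene. In all, 1655 of 79908 peaks met this rule, 321 of 31156 in the Znhit1-CKO list and 1334 of 48752 in the control list. The rule used coordinates and no measured value.

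The study used ChIP-seq (sequencing of immunoprecipitated chromatin) to map H2A.Z in testis cells of mice at postnatal day 14, with the genotypes Znhit1-CKO (a conditional knockout, called Znhit1-sKO in the protocol) and control. Each genotype had 2 immunoprecipitates and 2 inputs, which the protocol calls independent biological replicates. Each genotype has a single deposited list of peaks, and a further list holds differential regions without a stated direction. Neither the promoter that drove the deletion nor the strain is given in the sources used here. No value per replicate accompanies a peak, so the lists could not be compared against the spread between replicates, and no test is given. The intervals below are exact 95% intervals over peaks or pseudogenes, cover counting error only, and treat neighbouring sites as independent. The cells came from whole digested testes, so fewer cells of a type and less H2A.Z per cell cannot be told apart. Peak lists cannot check the cell type or the deletion itself. A control peak that a Znhit1-CKO peak overlaps by at least 1 bp is called shared below, and one without such overlap unshared.

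Sequence is shown for the few of these peaks that also hold an annotated start of a protein-coding gene. RefSeq promoter windows (250 bp before to 50 bp after a start, build GRCm38.p6) overlapped 4 of the 1334 control peaks. These were alternative starts lying more than 1 kb from the ends of their gene. The genes were Cast, which encodes the calpain inhibitor calpastatin, Pheta2, an adaptor of endosomes, Fez1, an adaptor of axonal transport, and Cox7a2, a subunit of cytochrome c oxidase. Each of the 4 peaks was overlapped by a Znhit1-CKO peak. For each gene the window with the most CpG dinucleotides is printed 5′ to 3′, with CG in capitals. CG reads the same on both strands.
Cast (chr13:74770687-74770986, minus strand): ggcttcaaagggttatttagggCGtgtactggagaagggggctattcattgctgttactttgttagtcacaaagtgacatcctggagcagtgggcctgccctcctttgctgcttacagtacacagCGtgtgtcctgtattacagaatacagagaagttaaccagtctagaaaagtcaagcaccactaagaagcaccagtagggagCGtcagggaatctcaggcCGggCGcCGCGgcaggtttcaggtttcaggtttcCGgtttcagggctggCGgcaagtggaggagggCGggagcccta
Pheta2 (chr15:82340929-82341228, plus strand): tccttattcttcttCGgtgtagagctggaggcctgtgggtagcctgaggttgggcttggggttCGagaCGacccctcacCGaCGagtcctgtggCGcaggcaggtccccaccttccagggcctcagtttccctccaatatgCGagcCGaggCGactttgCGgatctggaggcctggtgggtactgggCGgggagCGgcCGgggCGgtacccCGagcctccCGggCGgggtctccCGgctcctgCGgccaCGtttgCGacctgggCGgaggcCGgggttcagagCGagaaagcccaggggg
Fez1 (chr9:36832490-36832789, plus strand): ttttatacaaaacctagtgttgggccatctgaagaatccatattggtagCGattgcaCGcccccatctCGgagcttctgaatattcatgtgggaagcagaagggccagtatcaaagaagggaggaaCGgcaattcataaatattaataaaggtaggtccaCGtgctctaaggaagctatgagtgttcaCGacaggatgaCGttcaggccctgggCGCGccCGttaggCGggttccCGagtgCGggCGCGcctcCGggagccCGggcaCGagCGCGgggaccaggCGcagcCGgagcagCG
Cox7a2 (chr9:79759804-79760103, minus strand): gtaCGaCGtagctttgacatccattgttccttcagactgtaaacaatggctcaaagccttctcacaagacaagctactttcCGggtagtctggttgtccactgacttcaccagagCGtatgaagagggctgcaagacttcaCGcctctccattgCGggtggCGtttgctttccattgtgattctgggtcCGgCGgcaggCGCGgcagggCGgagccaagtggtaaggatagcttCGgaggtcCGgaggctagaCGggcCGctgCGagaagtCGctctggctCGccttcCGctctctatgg
The windows held 10 CpGs at Cast, 24 at Pheta2, 23 at Fez1 and 20 at Cox7a2. Of 32817 RefSeq windows, 43.4%, 20.0%, 21.5% and 26.5% held at least as many as these genes did in that order, and the median was 7. Each printed window lay wholly under peaks of both lists. A further Pheta2 window in the same control peak held 10 CpGs, and 91 of its 300 bp lay under the Znhit1-CKO peak. A further Fez1 window held 15 CpGs. The peak at Cast, beside the pseudogene Gm6296, was 848 bp wide in Znhit1-CKO and 1236 bp in control testes. That at Pheta2 was 1321 bp wide in Znhit1-CKO and 1459 bp in control testes, and that at Cox7a2 1293 bp and 1534 bp. At Fez1, 2 Znhit1-CKO peaks of 617 and 576 bp lay on 1 control peak of 1858 bp.

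Fewer H2A.Z peaks were called at pseudogene ends in Znhit1-CKO than in control testes. The 321 Znhit1-CKO peaks were 24.1% of the control number, and their 201 kb were 22.4% of the 900 kb covered in control testes. By number, Znhit1-CKO peaks came to 89.7% of control peaks at protein-coding gene ends, 57.0% at ends of lncRNA genes alone, 53.0% away from all these ends, and 63.9% overall. Peaks at pseudogene ends made up 1.03% of the Znhit1-CKO list and 2.74% of the control list. Their median width was 540 bp in Znhit1-CKO and 588 bp in control testes. Pseudogenes can be near-identical to their parent gene or to other copies, and how reads matching several places were handled is not given in the sources used here. Which copy a read came from is therefore uncertain, and the part of this in the values was not tested.

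Of the 1334 control peaks at pseudogene ends, 268 (20.1%, 18.0 to 22.3%) were overlapped by a Znhit1-CKO peak, against 49.3% of all control peaks. The share was 82.0% (81.4 to 82.6%) at protein-coding gene ends, 46.1% (44.4 to 47.8%) at lncRNA gene ends alone and 33.8% (33.3 to 34.4%) away from all of them. In the list of differential regions, 791 of the 1334 peaks had an entry (59.3%, 56.6 to 61.9%), against 48.9% of all control peaks. With overlap of at least 50% of both intervals these shares were 37.9% (35.3 to 40.6%) at pseudogene ends and 18.4% (18.1 to 18.8%) of all control peaks. Median control widths were 588 bp at pseudogene ends and 742 bp over all. The part of width in the shares at that setting was not tested. At 1 bp, the share with a differential region was 59.6% at protein-coding gene ends and 42.9% away from all gene ends. The first share at pseudogene ends was thus below that of each other class. Without regard to width, the second was close to that at protein-coding gene ends. Seen from the Znhit1-CKO list, 55 of 321 (17.1%, 13.2 to 21.7%) lay on no control peak, near the 17.9% over that whole list. The other classes differed widely, with 2.28% at protein-coding gene ends, 15.1% at lncRNA gene ends alone and 32.0% away from all of them. The share at pseudogene ends depended on the settings: it was 10.2% for peaks overlapping a pseudogene, 10.7% within 500 bp of an end and 10.8% for peaks of at least 500 bp (9.48% of all such Znhit1-CKO peaks). With overlap of at least 50% of both intervals it was 39.9%, against 39.2% of all Znhit1-CKO peaks. A differential region lay on 103 of the 321 (32.1%, 27.0 to 37.5%), against 37.0% of all Znhit1-CKO peaks. By class that share was 55.2% at protein-coding gene ends, 31.7% at lncRNA gene ends alone and 21.6% away from all of them.

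In each class narrower control peaks were less often shared, so peaks were also compared within 4 width groups cut at the quartiles of all control peaks (455, 742 and 1225 bp). In the narrowest group 5.48% of control peaks at pseudogene ends were shared (3.54 to 8.04%, n = 438), against 16.8% of peaks away from all gene ends (16.1 to 17.6%). In the third group these shares were 31.8% (26.9 to 37.0%, n = 343) and 48.3% (47.1 to 49.4%). In the widest they were 67.3% (57.7 to 75.9%, n = 110) and 75.7% (74.0 to 77.3%), and these last intervals overlap. The share with a differential region was higher at pseudogene ends in the 3 narrower groups, at 38.1% against 20.5% in the narrowest, 66.4% against 47.7% in the second and 73.5% against 59.9% in the third. In the widest group it was 70.9% (61.5 to 79.2%) at pseudogene ends and 63.3% (61.5 to 65.1%) away from gene ends. Control peaks at protein-coding gene ends were wider, with a median of 1331 bp. Their shares with a differential region were 17.3%, 41.9%, 58.6% and 68.9%, from the narrowest to the widest group.

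**Figure D1:**
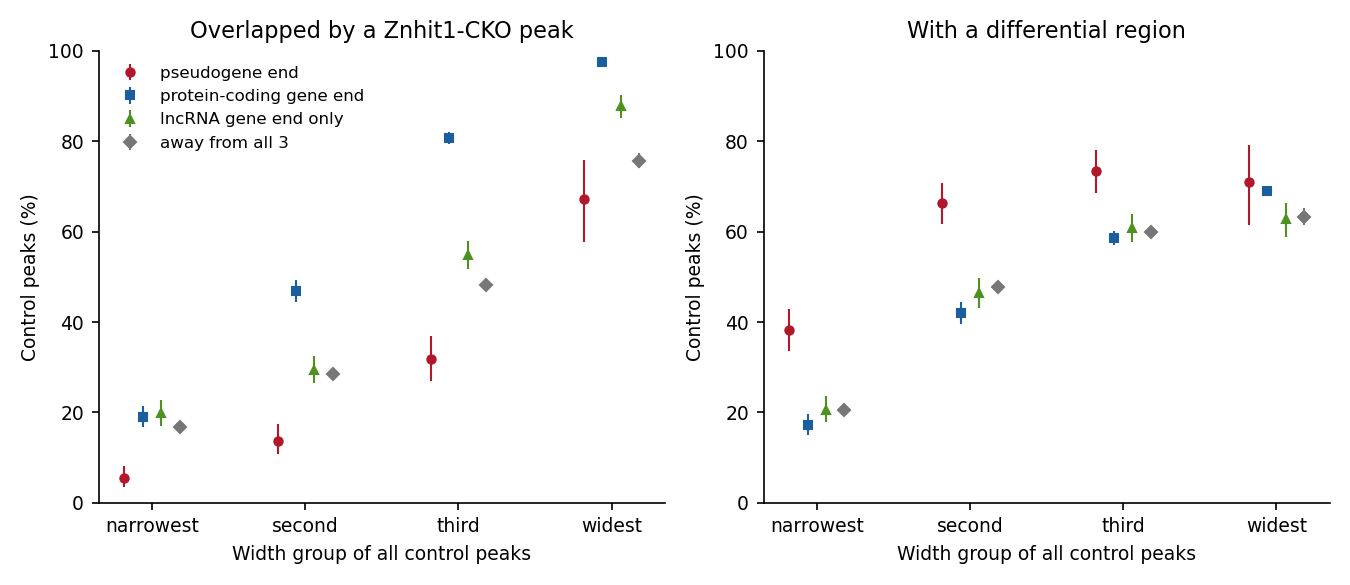
Share of control peaks overlapped by a Znhit1-CKO peak (left) and with a differential region (right), in percent, by width group of all control peaks and by the kind of gene end nearby. Points are shares and bars exact 95% intervals; peaks at pseudogene ends have the lowest overlap in each width group, from 5.48% in the narrowest to 67.3% in the widest, with intervals that overlap those of peaks away from gene ends in the widest group.

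The peaks lay on the pseudogenes themselves more than beside them. Of the 321 Znhit1-CKO peaks, 235 (73.2%) overlapped the nearest pseudogene, as did 1149 of the 1334 control peaks (86.1%). Among those that did, the median share of the peak lying inside the pseudogene was 81.4% in Znhit1-CKO and 84.2% in control testes. Inside the nearest pseudogene without reaching an end were 77 Znhit1-CKO peaks and 384 control peaks. Over 1 end lay 154 Znhit1-CKO and 695 control peaks, over the whole pseudogene 4 and 70, and outside it 86 and 185.

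Around pseudogene ends far from other genes, coverage by control peaks was higher inside the pseudogene than outside it. This was read at 14130 ends of plain pseudogenes (those RefSeq does not mark as transcribed) at least 500 bp long and over 4000 bp from any protein-coding or lncRNA gene end. At 400 bp inside the end, Znhit1-CKO peaks covered 0.708% and control peaks 6.08% of positions. At 1000 bp outside, the values were 0.269% in Znhit1-CKO and 0.531% in control testes. Called peaks covered a larger share of the 739 ends of transcribed pseudogenes: at the same 400 bp inside, Znhit1-CKO peaks covered 5.41% and control peaks 9.88%. At 1000 bp outside them the values were 0.947% in Znhit1-CKO and 1.08% in control testes. At these distances coverage was higher inside than outside in both lists and for both types.

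**Figure D2:**
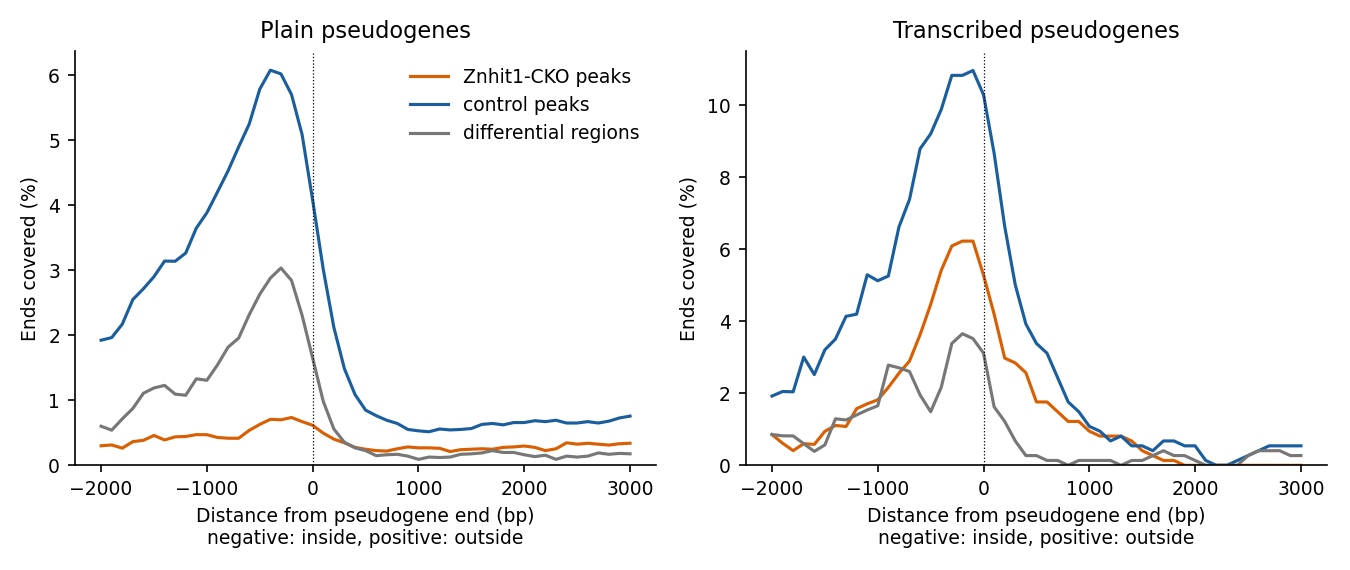
Percent of pseudogene ends covered by Znhit1-CKO peaks, control peaks and differential regions (vertical axis) by distance from the end in bp (horizontal axis; negative is inside, where pseudogenes at least that long were counted). At 400 bp inside 14130 plain ends Znhit1-CKO peaks cover 0.708% and control peaks 6.08%; at the same distance inside 739 transcribed ends Znhit1-CKO peaks cover 5.41% and control peaks 9.88%.

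Flanks of the same length as each pseudogene gave an internal comparison. The gene positions give no strand, so before and after follow genome coordinates and not the direction of the pseudogene. Of 6678 plain pseudogenes of 500 to 5000 bp with no other gene end nearby, 94 (1.41%, 1.14 to 1.72%) had a Znhit1-CKO peak centred in the body and 705 (10.6%, 9.83 to 11.3%) a control peak. In the flank before the pseudogene, 44 (0.659%) had a Znhit1-CKO peak and 117 (1.75%) a control peak. In the flank after it 33 had a Znhit1-CKO peak and 100 a control peak. Differential regions were centred in 482 bodies (7.22%), in 56 flanks before and in 59 flanks after. Control peaks centred in these bodies were shared in 90 of 725 cases (12.4%, 10.1 to 15.0%), against 26 of 119 (21.8%, 14.8 to 30.4%) in the flank before and 16 of 103 (15.5%, 9.15 to 24.0%) in the flank after. The interval for bodies overlaps that of each flank. A differential region lay on 67.0% (63.5 to 70.4%) of the body peaks, against 47.9% (38.7 to 57.2%) and 48.5% (38.6 to 58.6%) of the flank peaks.

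Control peaks at transcribed pseudogenes were shared more often than those at plain ones. Of 129 at transcribed pseudogenes, 61 (47.3%, 38.4 to 56.3%) were shared, against 206 of 1203 (17.1%, 15.0 to 19.4%) at plain pseudogenes. The order was the same in each width group: 20.6% and 4.21% in the narrowest, 33.3% and 12.3% in the second, 55.0% and 28.6% in the third, 88.0% and 61.2% in the widest. A differential region lay on 44.2% (35.5 to 53.2%) of the peaks at transcribed pseudogenes and on 60.8% (58.0 to 63.6%) of those at plain ones. Transcribed pseudogenes were also longer, with a median of 3372 bp against 910 bp.

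The share also varied with pseudogene length and distance to coding genes. Of control peaks at pseudogenes of up to 500 bp 12.3% were shared, at 500 to 1000 bp 13.8%, at 1000 to 2000 bp 17.7%, at 2000 to 5000 bp 29.4% and at longer ones 44.4% (35.6 to 53.6%, n = 126). By distance to the nearest protein-coding gene end, the share was 29.4% at 1 to 5 kb, 27.7% at 5 to 20 kb, 20.6% at 20 to 100 kb and 4.32% (2.32 to 7.27%, n = 301) beyond 100 kb. For peaks away from all gene ends these shares were 41.5%, 37.2%, 33.3% and 23.9%. Beyond 100 kb, 68.1% (62.5 to 73.3%) of the peaks at pseudogene ends had a differential region, against 42.1% (40.8 to 43.4%) of those away from gene ends. Inside a protein-coding or lncRNA gene 57 of 270 (21.1%, 16.4 to 26.5%) were shared and outside such genes 211 of 1064 (19.8%, 17.5 to 22.4%), with intervals that overlap.

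On the X chromosome 12 of 33 (36.4%, 20.4 to 54.9%) were shared, against 256 of 1301 on the autosomes (19.7%, 17.5 to 21.9%), and the Y had none in either list. Among autosomes the share ran from 11.6% on chromosome 16 to 31.6% on chromosome 19, with a median of 17.8%. Over all control peaks the share was 61.0% on the X and 49.1% on the autosomes. Near the edge of the rule, 5 of 30 control peaks lying 900 to 1000 bp from a pseudogene end were shared, and so were 10 of 27 lying 1000 to 1100 bp away, which the rule leaves out.

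**Figure D3:**
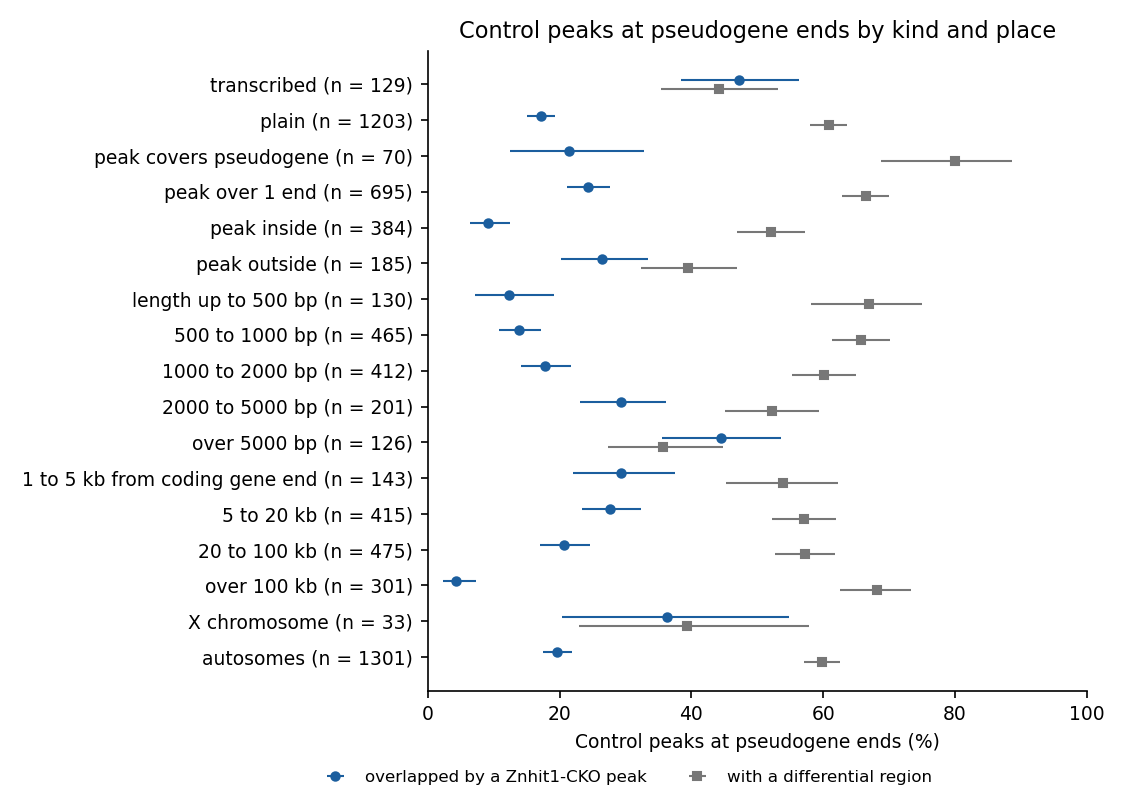
Percent of control peaks at pseudogene ends overlapped by a Znhit1-CKO peak (circles) and with a differential region (squares), by type of pseudogene, position of the peak, pseudogene length, distance to the nearest protein-coding gene end and chromosome; bars are exact 95% intervals. The share overlapped is 47.3% at transcribed and 17.1% at plain pseudogenes, and 4.32% more than 100 kb from coding gene ends; the 2 control peaks at gene segment pseudogenes are not drawn.

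Counted by pseudogene, 312 of 10622 (2.94%) had such a peak in Znhit1-CKO and 1285 (12.1%) in control testes, with 266 in both. At 271 of the 1285 (21.1%, 18.9 to 23.4%) a control peak was shared, and at 1014 none was. A differential region lay on the control peak of 792 (61.6%, 58.9 to 64.3%). Most of these pseudogenes carry a predicted symbol (Gm and a number), which names no family: 1020 of the 1285, of which 190 (18.6%) had a shared peak.

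Ribosomal protein genes, which are highly expressed in every cell, have many processed copies. Of 324 pseudogenes with a ribosomal protein symbol, 5 (1.54%, 0.503 to 3.56%) had a Znhit1-CKO peak and 50 (15.4%, 11.7 to 19.8%) a control peak. These 50 were 281 to 1028 bp long. Of all plain pseudogenes of up to 500 bp with a control peak, 13.6% (8.13 to 20.9%) had it shared and 67.2% (58.2 to 75.3%) had a differential region. At 500 to 1000 bp these were 13.2% (10.2 to 16.8%) and 67.8% (63.2 to 72.2%). At the ribosomal protein copies the control peak was shared at 4 of the 50 (8.0%, 2.22 to 19.2%), and a differential region lay at 41 (82.0%, 68.6 to 91.4%). Both intervals overlap those of both length groups. The 4, named after their values were seen, were Rpl19-ps9 (531 bp in Znhit1-CKO, 1442 bp in control), Rpl36-ps8 (413 and 1249 bp), Rpl5-ps2 (581 and 772 bp) and the transcribed Rps4l (511 and 1113 bp). In each the Znhit1-CKO peak was the narrower. The fifth with a Znhit1-CKO peak, Rpl35a-ps2, had 291 bp there and no control peak. Among the 46 with unshared peaks, also named after their values were seen, Rpl30-ps7 had 1273 bp in control, Rps4l-ps 1084 bp and Rpsa-ps1 1003 bp. The 5 copies of Rpl31 with a control peak (251 to 743 bp) were all unshared.

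Called peaks were also counted in the other groups of pseudogenes. Copies of housekeeping genes, such as those of tubulins, proteasome subunits and lactate dehydrogenase, had a Znhit1-CKO peak at 1 of 94 and a control peak at 14 (14.9%, 8.39 to 23.7%), and the 1 with a shared peak was Tuba5-ps (widest peak 329 bp in Znhit1-CKO, 755 bp in control). Pseudogenes of olfactory receptors had one at 1 of 317 in Znhit1-CKO and at 2 in control testes. Those of vomeronasal receptors, the pheromone receptors, had one at 3 of 291 and at 5. Of 18 zinc finger pseudogenes, 6 had a Znhit1-CKO peak and 7 a control peak, and at 6 of the 7 it was shared (85.7%, 42.1 to 99.6%). These included Zfp133-ps (1378 bp in Znhit1-CKO, 1343 bp in control) and Zfp389 (1151 and 1274 bp), while the control peak of 1052 bp at Zfp683 was unshared. Of the 7, 4 are of the transcribed type. Their widest control peaks were 739 to 1427 bp, against a median of 588 bp over all control peaks at pseudogene ends. Wider peaks and peaks at transcribed pseudogenes were more often shared, and the part of width or type in this share was not tested.

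Most parent genes had peaks in both lists, and most of their copies with a control peak did not. A parent could be read from the symbol for 724 pseudogenes (ending in -ps, with a protein-coding gene of the stem name), and 145 of these had a control peak. It was shared at 26 of the 145 (17.9%, 12.1 to 25.2%). Of their 116 parent genes, 109 had a control peak within 1 kb of an end, and 102 of the 109 (93.6%, 87.2 to 97.4%) had a Znhit1-CKO peak there too. Among the 136 copies whose parent had a control peak, the copy's peak was unshared while the parent had a Znhit1-CKO peak at 103. The copy's peak was shared and the parent had a Znhit1-CKO peak at 25, neither held at 7, and only the first held at 1. The widest peak of a parent had a median of 1176 bp in Znhit1-CKO and 1409 bp in control testes, and that of a copy 568 bp (n = 26) and 610 bp (n = 145). With the widest control peak between 742 and 1225 bp, 12 of 34 copies (35.3%, 19.7 to 53.5%) and 16 of 18 parents (88.9%, 65.3 to 98.6%) also had a Znhit1-CKO peak. The parent was assigned by symbol alone. A parent needed a peak of each list at an end, overlapping or not, while a copy's control peak had to be overlapped. Counted by peak, 17.1% of control peaks at all plain pseudogenes and 82.0% of those at all protein-coding gene ends were shared.

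**Figure D4:**
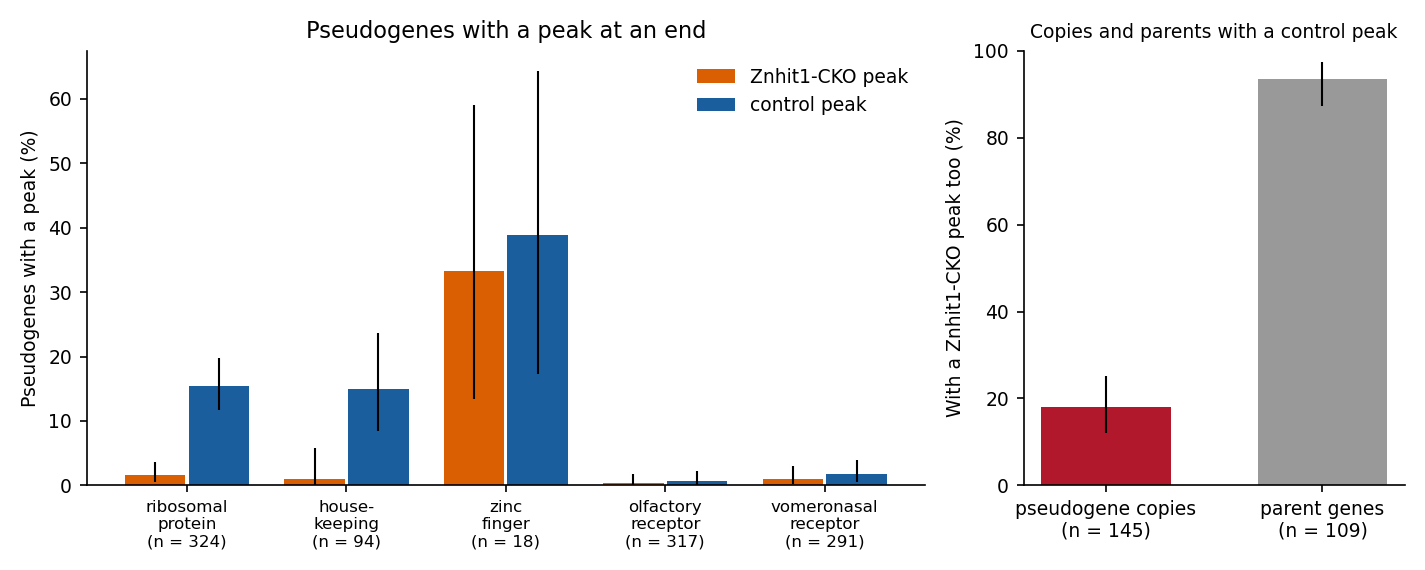
Left, percent of pseudogenes of each kind with a Znhit1-CKO or a control peak at an end (n is all pseudogenes of the kind in the RefSeq table); right, percent of pseudogene copies and of parent genes with a control peak that also had a Znhit1-CKO peak; bars carry exact 95% intervals. Ribosomal protein copies have a peak at 1.54% in Znhit1-CKO and 15.4% in control testes. Among those with a control peak, 17.9% of copies had it overlapped by a Znhit1-CKO peak, and 93.6% of parents had a Znhit1-CKO peak at an end, overlapping or not.

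The 10 widest unshared control peaks lay on their pseudogenes, over the whole pseudogene, over 1 end or inside. The widest, 3138 bp (chr3:54632328-54635465), covered B020017C02Rik, a pseudogene of 1083 bp, and the nearest Znhit1-CKO peak was 14.2 kb away. Gm5697 followed with 2117 bp (chr1:28800834-28802950, nearest Znhit1-CKO peak 98.2 kb away) and Prkcz2, which lies within the zinc finger gene Zfp607a, with 1922 bp (chr7:27882695-27884616, 21.4 kb). The other 7 were Gm5790 (1904 bp), Gm5735 (1702 bp), Gm6189 (1700 bp), Gm8856 (1608 bp), Gm8873 (1608 bp), Gm11452 (1558 bp) and Gm4945 (1555 bp). A differential region lay on each of the 10, and none is of the transcribed type. Of the 110 control peaks at pseudogene ends wider than 1225 bp, 70.9% had a differential region, as did 67.4% of all control peaks that wide. Plain pseudogenes held 1203 of the 1334 control peaks. For the 10, the nearest Znhit1-CKO peak lay between 2.67 kb (Gm5790) and 253 kb (Gm8856) away. Over all 1066 unshared control peaks, that gap had a median of 35498 bp, and 23 had a Znhit1-CKO peak within 1000 bp. Their median width was 535 bp (range 205 to 3138 bp), and 680 (63.8%) had a differential region. That share was 41.4% over the 268 shared peaks and 48.9% over all control peaks.

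The 10 widest shared control peaks were chosen for their control width, which by itself favours a narrower Znhit1-CKO partner, so their widths are given as a description. Gm8241 had 760 bp in Znhit1-CKO and 2142 bp in control testes (chr1:43897872-43900013), and Gm17831 had 740 bp and 2075 bp. Atp10d, a lipid flippase gene that RefSeq lists as a transcribed pseudogene, had 2 Znhit1-CKO peaks of 567 and 842 bp on a control peak of 2061 bp. The transcribed BC025920 had 3 Znhit1-CKO peaks, the widest 677 bp, on a control peak of 2241 bp. These 2 control peaks thus faced several narrower Znhit1-CKO peaks. Rnps1-ps, a copy of an exon junction complex gene, had 685 and 426 bp in Znhit1-CKO on 2027 bp in control, and Gm16505 had 1094 and 1941 bp on 3359 bp, the widest of all 1334. Gm15730, within the sorcin gene Sri, had 1684 bp in Znhit1-CKO and 2780 bp in control. Gm21321 had 2461 bp in Znhit1-CKO and 2576 bp in control, and Gm15488 was wider in Znhit1-CKO, with 2158 bp against 1977 bp. Gm11620 had 284 bp in Znhit1-CKO and 2091 bp in control. Of these 10, 6 had a differential region, against 70.9% of the 110 control peaks at pseudogene ends wider than 1225 bp.

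Shared peaks were usually narrower in Znhit1-CKO testes. In 259 pairs of 1 control peak and 1 Znhit1-CKO peak that overlapped each other and no other peak, the Znhit1-CKO width was the smaller in 218 (84.2%, 79.1 to 88.4%), against 79.0% of all pairs. This share was 83.0% (82.3 to 83.7%) at protein-coding gene ends and 73.9% (73.0 to 74.8%) away from all gene ends. Median widths were 587 bp in Znhit1-CKO and 911 bp in control testes. The median log2 ratio of Znhit1-CKO over control width was -0.46 (-0.54 to -0.40), against -0.27 (-0.28 to -0.26) over all 22040 pairs, -0.32 (-0.34 to -0.31) over pairs away from gene ends and -0.24 (-0.24 to -0.23) at protein-coding gene ends. It was -0.54 (-0.66 to -0.44) at plain and -0.35 (-0.43 to -0.17) at transcribed pseudogenes. In 54 pairs the Znhit1-CKO peak had at most 50% of the control width, and in 2 pairs at least double that width. The lowest ratios among control peaks of at least 500 bp were at Pced1c-ps (227 bp in Znhit1-CKO, 1835 bp in control, log2 ratio -3.02), Gm15784 (237 and 1783 bp, -2.91) and Gm11620 (-2.88), each with a differential region. The highest were at Psenen-ps, a copy of a gamma-secretase subunit gene (1038 and 568 bp, 0.87), Gm5976 (934 and 523 bp, 0.84) and Erdr1 (1233 and 738 bp, 0.74). None of these had a differential region, and each of the 3 control peaks lay beside its pseudogene, not on it.

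**Figure D5:**
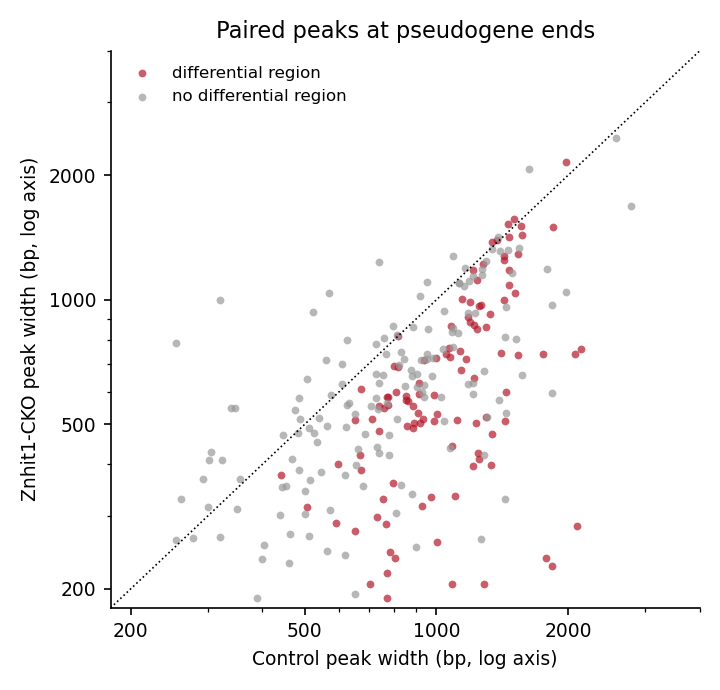
Width of the Znhit1-CKO peak (vertical, log axis) against that of its control peak (horizontal, log axis) in 259 one-to-one pairs at pseudogene ends; the dotted line marks equal widths. Most points (218 of 259) lie under the line, those with a differential region farther than the rest (median log2 ratio -0.61 against -0.35).

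Znhit1-CKO peaks without a control peak were narrower than those with one. Their median width was 379 bp, against 584 bp for the 266 that overlapped a control peak. A differential region lay on 1 of the 55 and on 102 of the 266 (38.3%). Over the whole Znhit1-CKO list, 37.0% of peaks had a differential region. Counted by region, 1 of 784 differential regions at pseudogene ends (0.128%) lay on a Znhit1-CKO peak alone. In the whole series 385 of 24367 did (1.58%). There, 5568 Znhit1-CKO peaks had no control peak, and the share of these with a differential region is not given here. Erdr1, which RefSeq lists as a transcribed pseudogene of the X chromosome, held 4 Znhit1-CKO peaks of 1466, 1233, 575 and 434 bp and 1 control peak of 738 bp. The peaks of 1466 bp (chrX:170018669-170020134) and 575 bp were among the 6 widest without a control peak. The other 4 were at Gm9568 (1159 bp), Gm12727 (685 bp), Gm8225 (585 bp) and Gm6134 (581 bp). None of the 6 had a differential region, and the nearest control peak was 0.992 to 8.72 kb away.

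Of 24367 differential regions, 784 met the same rule of position. Among these 784, 1 (0.128%) lay on a Znhit1-CKO peak alone, 674 (86.0%) on a control peak alone, 97 (12.4%) on peaks of both lists and 12 (1.53%) on neither. Over all differential regions the shares were 1.58%, 52.3%, 45.2% and 0.870% in the same order. Of the 1334 control peaks at pseudogene ends 1066 were unshared, which by itself favours regions on a control peak alone. The deposited list gives no sign, so the direction of the 97 regions over peaks of both lists is not stated.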

How the data were processed

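H2A.Z ChIP-seq peak lists of Znhit1-CKO and control testes at postnatal day 14 were used, with the list of differential regions. The submitters' processing notes name cutadapt 2.5, BWA 0.7.17, SAMtools 1.9, Picard 2.20.7, MACS2 2.2.4 and build mm10, and the name of the differential list credits edgeR. The authors deposited chromosome, start and end and no other value. For thresholds, pooling of replicates and reads with several matches, the answer is not given in the sources used here. Depth cannot be read from the lists; the labels' protocol states over 30000000 reads per library.

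Gene positions were those of RefSeq for GRCm38.p6 (the coordinates of mm10), with 21896 protein-coding genes, 12731 lncRNA genes and 10622 pseudogenes (9955 plain, 487 transcribed, 180 gene segment or non-coding RNA types). It gives no strand, and 4 entries without coordinates were not used. Distances run from the edge of a peak to a gene end, and peaks were shared at an overlap of at least 1 bp. Starts count from 1. Shares carry exact (Clopper-Pearson) intervals, and medians carry order-statistic intervals. No chance test was run, and no p-value is given. The members, groups and lists were chosen with earlier results of these data known. The parent gene comparison, profiles, flanks, pseudogene lengths and promoter windows were chosen after the files were seen. Pseudogenes were named by rule: the 10 widest control peaks without and the 10 with a Znhit1-CKO peak, the 6 widest Znhit1-CKO peaks without a control peak, and the 3 lowest and 3 highest width ratios. Overlap and membership were checked against bedtools 2.31.1, with 0 differing calls, and tested on simulated data. The software was matplotlib 3.10.9, scipy 1.17.1, pandas 2.3.3 and numpy 2.4.6 under Python 3.11.15. Alternatives were windows of 500 and 2000 bp, other gene and pseudogene types, a minimum width of 500 bp, places outside genes, 50% overlap and a gap of 500 bp.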

Additional observations from a re-analysis of the deposited data

How the results depend on the processing

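No paired analysis was possible because replicates carry no values of their own in the files. For that reason no replicate was left out, and a stricter peak threshold was not run because peaks carry no score. Of 48 values under alternatives, 35 stayed within the interval of the value in the report or within 1.5 times its count. The other 13 did not. Direction was checked only for the median log2 width ratio, which stayed negative under each alternative that gave one. Requiring overlap with a pseudogene was added after seeing the data. With peaks of at least 500 bp, 185 Znhit1-CKO and 817 control peaks lay at pseudogene ends, 10.8% of the Znhit1-CKO peaks had no control peak, 70.5% of the control peaks had a differential region, and the median log2 width ratio was -0.39. With 50% overlap of both intervals, 39.9% of Znhit1-CKO peaks matched no control peak, 14.8% of control peaks were shared and 37.9% held a differential region. Over all peaks these were 39.2%, 38.9% and 18.4% at that setting, and with peaks of at least 500 bp 9.48%, 51.2% and 59.4%. Znhit1-CKO peaks lying on no control peak made up 10.7% within 500 bp of an end, 22.0% within 2000 bp and 10.2% for peaks overlapping a pseudogene. Of control peaks overlapping a pseudogene, 62.6% had a differential region. At plain pseudogenes alone 17.2% of control peaks were shared. The cause of these shifts was not tested. Depth per library is unknown, so a peak missing from a list may have been under its threshold and not absent.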
